A study of Homo sapiens with 9 samples.

Results

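The zinc finger genes described here are 37 of the 487 genes with a symbol of ZNF or ZFP and a number that were measured in MDA-MB435S cells carrying an empty vector (EV), WWOX or its WFPA mutant. They were selected on their levels in these same arrays: the highest of the 3 group means had to be at least 6 on the log2 intensity scale and at least 1 above the lowest, which is a 2-fold difference. The differences between groups given below for the 37 are therefore a description and carry no test. Of the 487 family genes, 367 had a group mean of 6 or more and could enter. Over all 19775 genes measured, 1222 (6.18%) met the same limits on level and difference, against 37 of 487 family genes (7.6%), a share close to that background.

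Most proteins named ZNF or ZFP carry zinc fingers of the C2H2 type in tandem, each of which contacts a few bases of DNA. Many also carry a KRAB domain, which recruits TRIM28 (also called KAP1) and with it the methyltransferase SETDB1 and HP1 proteins, so that the bound chromatin is silenced, often at transposable elements. These genes multiplied by tandem duplication, and chromosome 19 holds most of their large clusters.

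MDA-MB435S cells come from a metastatic melanoma, and WWOX is a tumor suppressor with WW domains. RNA from WWOX, WFPA and EV cells was hybridized to Affymetrix U133 Plus 2.0 arrays, 3 for each group, to ask which genes respond to WWOX and whether the response needs an intact WW domain. WWOX cells carried the wild type gene, WFPA cells the gene with a mutated WW domain and EV cells no insert. All were stable clones made with a pDEST12.2 lentiviral vector and kept under G418 selection. Clonal differences and the construct cannot be told apart. The titles set the groups. The vector field goes against them, naming WT WWOX for the EV arrays and none for the WWOX arrays, and the EV titles carry the addition wox+. Nothing in the labels says whether the arrays of a group came from separate cultures, so p-values measure only the spread between these arrays.

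As a check of the titles, the level of WWOX itself was 10.80, 10.83 and 10.34 in WWOX cells, 10.35, 10.12 and 10.25 in WFPA cells, and 9.26, 8.81 and 8.74 in EV cells (log2 intensity). WWOX and WFPA arrays all lay above the EV arrays, in the direction of the titles. The median level of an array was 6.03 to 6.05 and its lower quartile 4.23 to 4.34. WWOX replicate 3 stood apart from the other WWOX arrays on the third principal component (-54.8, against 42.3 and 25.2). Of the melanocytic markers, MITF was high in every group (13.43 in WWOX, 11.40 in WFPA and 11.87 in EV cells), while MLANA (4.43 in WWOX, 4.42 in WFPA and 4.38 in EV cells) and PMEL (5.77 in WWOX, 5.91 in WFPA and 5.80 in EV cells) lay under the array median. Others set the lines apart. SOX10 had 10.55 in WWOX, 5.33 in WFPA and 4.89 in EV cells, under the array median in WFPA and EV. S100B had 12.23 in WWOX, 6.31 in WFPA and 5.555 in EV cells. In an RNA sample of many cells, fewer cells of a type and less RNA per cell cannot be told apart.

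The sequences shown are the promoters of 5 genes on chromosome 19. The 5 include both head-to-head pairs among the 37 and the gene with the largest difference. The part of these sequences in the differences was not tested. Each sequence runs from 250 bases before to 50 bases after the RefSeq start (GRCh38.p14), read 5′ to 3′ on the gene's own strand, with every CG in capitals. ZNF569 (chr19:37467395-37467694, minus strand) and ZNF570 (chr19:37467522-37467821, plus strand) start 328 bases apart and run away from each other, and their windows share 173 bases, so part of each line is the reverse complement of the other. ZNF829 (chr19:36916242-36916541, minus strand) and ZNF568 (chr19:36916082-36916381, plus strand) start 41 bases apart and share 140 bases. ZFP82 lies at chr19:36418595-36418894 on the minus strand.
ZNF569: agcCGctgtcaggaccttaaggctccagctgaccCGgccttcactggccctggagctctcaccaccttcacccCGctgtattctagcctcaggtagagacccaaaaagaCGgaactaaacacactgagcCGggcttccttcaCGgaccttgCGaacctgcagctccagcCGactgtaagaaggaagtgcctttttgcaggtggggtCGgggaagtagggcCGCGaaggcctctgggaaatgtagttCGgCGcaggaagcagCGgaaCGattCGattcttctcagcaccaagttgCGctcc
ZNF570: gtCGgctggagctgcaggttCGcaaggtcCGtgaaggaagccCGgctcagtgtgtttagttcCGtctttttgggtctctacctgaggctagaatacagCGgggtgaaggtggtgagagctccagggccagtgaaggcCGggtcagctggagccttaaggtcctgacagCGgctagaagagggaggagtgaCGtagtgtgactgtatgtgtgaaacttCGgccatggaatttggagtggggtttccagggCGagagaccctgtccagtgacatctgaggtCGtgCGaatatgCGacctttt
ZNF829: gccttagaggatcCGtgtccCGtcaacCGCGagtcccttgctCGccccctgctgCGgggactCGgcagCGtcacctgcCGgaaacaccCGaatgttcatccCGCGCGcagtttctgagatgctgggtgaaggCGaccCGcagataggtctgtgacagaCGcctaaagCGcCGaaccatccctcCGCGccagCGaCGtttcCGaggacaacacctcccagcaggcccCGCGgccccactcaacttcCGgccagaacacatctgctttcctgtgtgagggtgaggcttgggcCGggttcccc
ZNF568: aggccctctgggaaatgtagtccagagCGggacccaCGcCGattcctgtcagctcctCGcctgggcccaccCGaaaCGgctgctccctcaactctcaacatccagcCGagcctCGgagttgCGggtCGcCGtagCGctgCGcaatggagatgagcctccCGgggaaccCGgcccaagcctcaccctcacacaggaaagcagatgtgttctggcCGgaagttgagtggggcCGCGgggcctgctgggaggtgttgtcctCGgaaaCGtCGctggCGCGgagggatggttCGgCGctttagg
ZFP82: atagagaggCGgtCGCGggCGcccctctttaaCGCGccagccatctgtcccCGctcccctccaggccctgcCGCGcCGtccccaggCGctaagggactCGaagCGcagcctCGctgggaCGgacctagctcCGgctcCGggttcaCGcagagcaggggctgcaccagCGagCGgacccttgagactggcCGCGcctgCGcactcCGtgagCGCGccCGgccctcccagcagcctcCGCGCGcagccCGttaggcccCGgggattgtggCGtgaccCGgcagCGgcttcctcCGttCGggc
The ZFP82 promoter held 37 CG dinucleotides, ZNF829 held 27, ZNF568 25, ZNF569 17 and ZNF570 14.

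The genes of each pair fell in the same set: ZNF569 and ZNF570 stood apart as lowest in WWOX cells, and ZNF568 and ZNF829 as highest in WFPA cells. Of 9 pairs of family genes in the promoter table whose windows overlap on opposite strands, these 2 had both genes among the 37, and in the other 7 pairs neither gene was among them. The place of ZNF829 rests on a probe set of the _x_at type, whose probes may also match other transcripts. Without such probe sets it no longer met the limits. A promoter was found for 31 of the 37 genes and for 397 family genes in all. Among the 31, 10 had an overlapping promoter of some gene on the other strand, and among the 397 family genes 87 did.

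The 31 promoters held a median of 19 CG dinucleotides (range 2 to 51), against 22 for the 366 family genes outside the 37, 22 for the 15382 measured genes with a promoter and 14 for all 27305 promoters. The lowest count, 2, was that of ZNF404. A GC box, searched as GGGCGG on both strands, was found in 13 of the 31 promoters (41.9%), in 65.3% of the 366 other family promoters, in 58.9% of those of measured genes and in 44.6% of all promoters. A CCAAT box (CCAAT) was found in 12 of 31 (38.7%), against 47.8% of the other family promoters, 36.1% of those of measured genes and 35.7% of all. The E-box CACGTG and the TATA box TATAAA were each found in 1 of 31 (3.23%), against 6.01% and 3.01% of the other family promoters, 8.9% and 8.76% of those of measured genes, and 7.43% and 12% of all. A match is a string of letters and not a site in use, and these shares were not tested.

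Each gene was placed by the line whose mean lay farther from the middle one. A line can thus be lowest or highest for further genes in which another line stood apart. WWOX cells stood apart as lowest for 15 genes, and 10 of these lie on chromosome 19. These were ZNF662, ZNF570, ZNF569, ZNF566, ZNF432, ZNF547, ZNF23, ZNF442, ZNF182, ZNF623, ZNF420, ZNF300, ZNF850, ZNF616 and ZNF222. WFPA cells stood apart as highest for 14 genes, 12 of them on chromosome 19: ZFP82, ZNF404, ZNF883, ZNF493, ZNF431, ZNF573, ZNF568, ZNF419, ZFP30, ZNF738, ZNF485, ZNF829, ZNF226 and ZNF283. WWOX cells stood apart as highest for ZNF704, ZNF782, ZNF365 and ZNF654, none of which lies on chromosome 19. EV cells stood apart as lowest for ZNF385D, ZNF362 and ZNF880, and as highest for ZNF114.

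**Figure D1:**
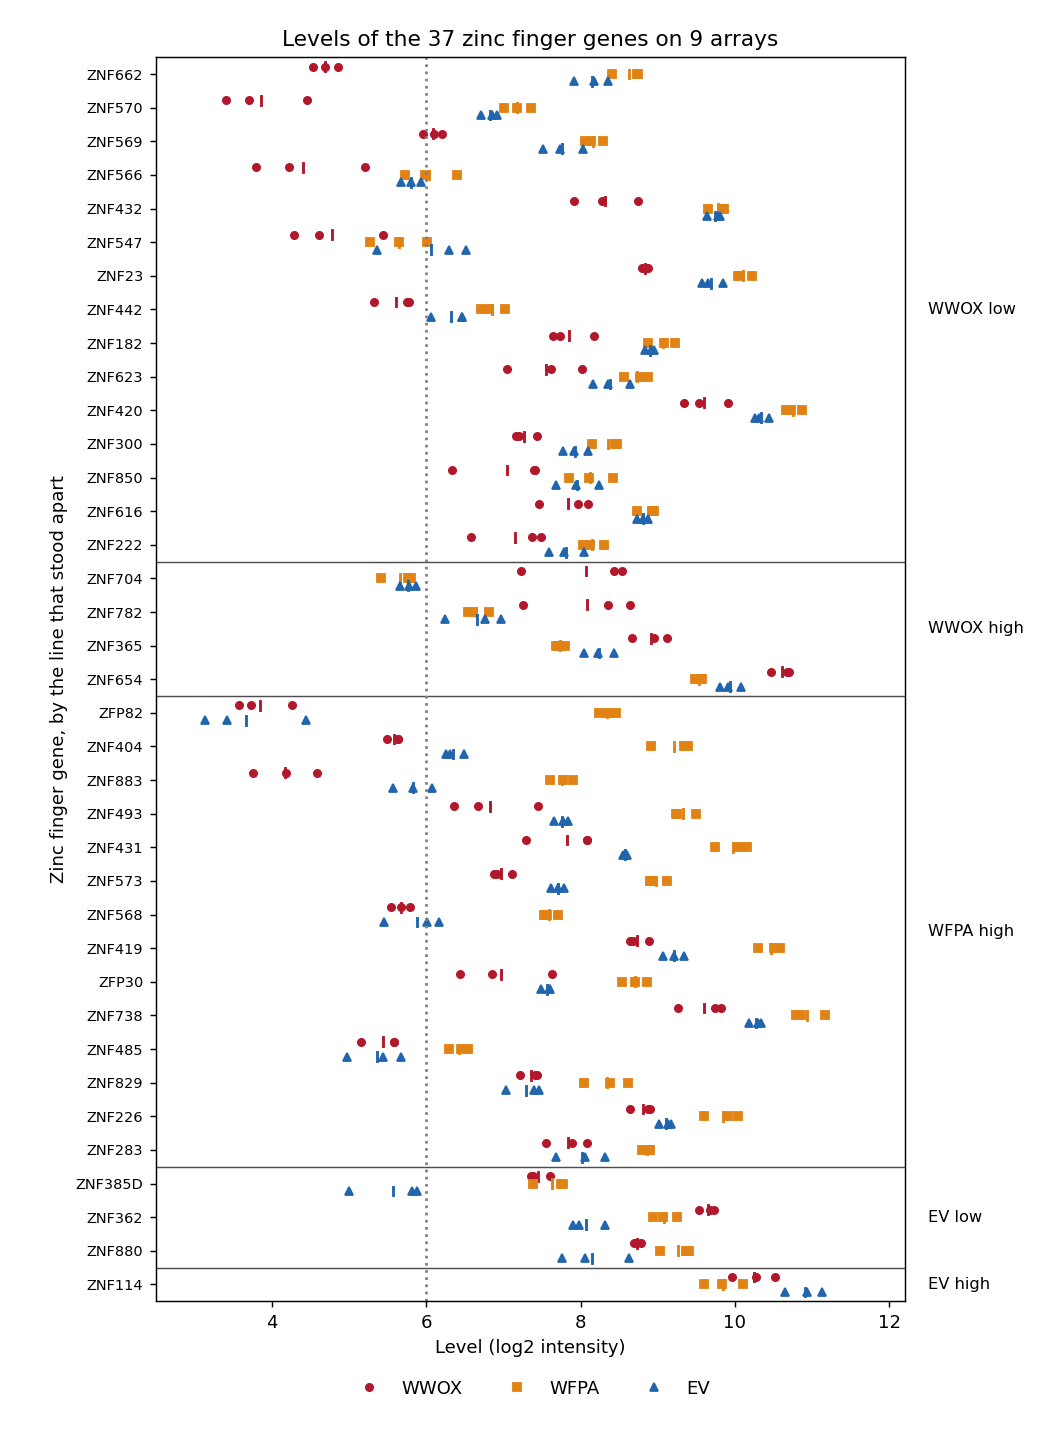
Levels of the 37 zinc finger genes (log2 intensity, x axis) on each of 9 arrays, with a short bar at each group mean and a dotted line at the limit of 6. Rows are grouped by the line that stood apart, with 15 genes low and 4 high in WWOX cells, 14 high in WFPA cells, and 3 low and 1 high in EV cells.

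ZNF662, on chromosome 3, had the largest difference among the genes low in WWOX cells. Its level was 4.69, 4.53 and 4.86 in WWOX cells, against 8.74, 8.40 and 8.73 in WFPA cells and 8.18, 8.36 and 7.92 in EV cells. The WWOX arrays lay far below all 6 others, 3.93 under the WFPA mean and 3.46 under the EV mean, while WFPA and EV differed by 0.47. The promoter window of ZNF662 held 24 CG dinucleotides and none of the 4 motifs.

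The head-to-head pair came next. ZNF570 had levels of 3.40, 4.46 and 3.70 in WWOX cells, 7.36, 7.17 and 7.003 in WFPA cells, and 6.72, 6.91 and 6.85 in EV cells. ZNF569 had levels of 5.95, 6.10 and 6.21 in WWOX cells, 8.05, 8.29 and 8.14 in WFPA cells, and 7.51, 8.04 and 7.73 in EV cells. For both genes the WWOX arrays were low without overlap, and WFPA lay slightly above EV (by 0.35 for ZNF570 and 0.40 for ZNF569). The WWOX mean of ZNF570, 3.85, is under the lower quartile of the arrays, so the size of its 10.0-fold difference between WFPA and WWOX cells is uncertain. A second probe set of ZNF570 had means of 5.04 in WWOX, 6.37 in WFPA and 6.24 in EV cells, and that of ZNF569 had 5.75 in WWOX, 7.86 in WFPA and 7.47 in EV cells. The 2 probe sets of ZNF570 are nearly as bright as each other: without WFPA replicate 1, 2 or 3 or EV replicate 1 or 3 the second one was the brighter, and WWOX lay 1.23 to 1.31 under the mean of the others, in place of 3.15.

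ZNF566 and ZNF432, also on chromosome 19, differed less. ZNF566 had levels of 5.21, 4.22 and 3.80 in WWOX cells, 5.73, 5.99 and 6.40 in WFPA cells, and 5.94, 5.81 and 5.67 in EV cells. ZNF432 had levels of 8.27, 8.74 and 7.92 in WWOX cells, 9.85, 9.65 and 9.85 in WFPA cells, and 9.81, 9.64 and 9.77 in EV cells. For ZNF432 the WFPA and EV arrays overlapped and their means differed by 0.04, so only the WWOX arrays stood apart. ZNF547 was the exception in this set: its levels of 5.44, 4.29 and 4.62 in WWOX cells overlapped with 5.28, 6.01 and 5.65 in WFPA cells and with 6.30, 6.52 and 5.37 in EV cells. The other 14 genes low in WWOX cells had all 3 WWOX arrays below the 6 others, a gap that the selection favours. Over all genes, 18.5% had WWOX arrays below those of WFPA and 16.5% had them below those of EV.

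The remaining 9 genes of this set differed by 1.01 to 1.27 between their highest and lowest means. ZNF420, also known as APAK, is a KRAB protein that binds p53 and restrains its activity. Its mean was 9.60 in WWOX, 10.75 in WFPA and 10.34 in EV cells. ZNF23, on chromosome 16, had the tightest WWOX arrays of the 15, at 8.84 ± 0.039 in WWOX, 10.11 ± 0.104 in WFPA and 9.69 ± 0.139 in EV cells (SD, n = 3 each). ZNF300, ZNF182 and ZNF623 are the others outside chromosome 19 besides ZNF662. ZNF182 lies on the X chromosome and had means of 7.85 in WWOX, 9.06 in WFPA and 8.90 in EV cells.

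Among the genes high in WFPA cells, ZFP82 had the largest difference of all 37. Its level was 4.26, 3.57 and 3.73 in WWOX cells, 8.35, 8.46 and 8.23 in WFPA cells, and 3.42, 4.44 and 3.14 in EV cells. WWOX and EV arrays overlapped near or under the lower quartile, where no background level is given, so the 25.7-fold difference between the WFPA and EV means is uncertain in size. Its second probe set showed the same pattern at a smaller size, with means of 4.35 in WWOX, 6.70 in WFPA and 4.29 in EV cells. The 2 probe sets are nearly as bright as each other. Without WFPA replicate 2 or 3 the second one was the brighter. By it WFPA stood 2.32 or 2.66 above the mean of the others, in place of 4.59.

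ZNF404 followed, and here the lines took 3 separate levels. It had 5.64, 5.64 and 5.49 in WWOX cells, 8.91, 9.34 and 9.39 in WFPA cells, and 6.31, 6.49 and 6.26 in EV cells. No arrays of different lines overlapped, with WWOX 0.76 below and WFPA 2.86 above EV. ZNF883, on chromosome 9, showed the same order, with WWOX 1.65 below and WFPA 1.93 above EV. It had 4.58, 3.76 and 4.19 in WWOX cells, 7.61, 7.90 and 7.77 in WFPA cells, and 5.84, 5.57 and 6.08 in EV cells. Its WWOX mean of 4.18 is again under the lower quartile.

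ZNF493, ZNF431 and ZNF573, all on chromosome 19, had this order as well. ZNF493 had 7.45, 6.36 and 6.67 in WWOX cells, 9.25, 9.50 and 9.23 in WFPA cells, and 7.65, 7.83 and 7.78 in EV cells. ZNF431, a KRAB protein that represses the Hedgehog receptor gene Patched 1 in the mouse, had 8.08, 8.08 and 7.29 in WWOX cells, 10.04, 10.15 and 9.74 in WFPA cells, and 8.61, 8.55 and 8.58 in EV cells. ZNF573 had 7.11, 6.88 and 6.92 in WWOX cells, 8.90, 8.91 and 9.12 in WFPA cells, and 7.62, 7.79 and 7.70 in EV cells. In all 3 genes the WWOX arrays lay below every EV array and the WFPA arrays above, with no overlap.

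Of the other 8 genes high in WFPA cells, ZNF568 is best known from the mouse, where Zfp568 silences a placental transcript of Igf2. Its mean was 5.67 ± 0.123 in WWOX, 7.60 ± 0.095 in WFPA and 5.88 ± 0.376 in EV cells (SD, n = 3 each), and WWOX and EV arrays overlapped. Its head-to-head partner ZNF829 had 7.36 in WWOX, 8.35 in WFPA and 7.30 in EV cells, read by a probe set of the _x_at type, whose probes may also match other transcripts. A second, dim probe set of ZNF829 had 4.99 in WWOX, 5.56 in WFPA and 5.51 in EV cells. With _x_at probe sets left out, an alternative chosen after seeing the data, ZNF829 stood 0.31 above the mean of the others in WFPA cells, in place of 1.02, and no longer met the limits. ZFP30 and ZNF222, read by _x_at probe sets alone, then had no value. ZNF419, the source of a minor histocompatibility antigen, had 8.74 in WWOX, 10.47 in WFPA and 9.21 in EV cells. In all 14 genes high in WFPA cells the 3 WFPA arrays lay above the 6 others, a gap that the selection favours. Over all genes, 16.3% had WFPA arrays above those of EV and 18.5% had them above those of WWOX. Here too each share is for 1 pair of lines, and the share above all 6 others was not counted.

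ZNF704 had the largest difference of the 4 genes high in WWOX cells. Its levels were 8.43, 8.54 and 7.23 in WWOX cells, 5.80, 5.77 and 5.41 in WFPA cells, and 5.87, 5.78 and 5.66 in EV cells. WFPA and EV overlapped, and WWOX replicate 3 was the lowest of the WWOX arrays by more than 1. ZNF782 had 7.26, 8.64 and 8.36 in WWOX cells, 6.82, 6.58 and 6.54 in WFPA cells, and 6.25, 6.77 and 6.97 in EV cells. Here WFPA and EV overlapped again, and WWOX replicate 1 was nearest to them. The further probe sets of ZNF782 did not have WWOX as the highest line. The brighter of them had means of 6.417 in WWOX, 6.115 in WFPA and 6.473 in EV cells. The dimmer had 5.368 in WWOX, 5.999 in WFPA and 5.581 in EV cells, with WWOX lowest. The high level of ZNF782 in WWOX cells thus rests on its brightest probe set.

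ZNF365, which takes part in keeping the genome stable at stalled replication forks, and ZNF654 were also highest in WWOX cells but had EV above WFPA. ZNF365 had 8.95, 9.13 and 8.66 in WWOX cells, 7.68, 7.73 and 7.80 in WFPA cells, and 8.23, 8.44 and 8.04 in EV cells. ZNF654 had 10.47, 10.70 and 10.67 in WWOX cells, 9.57, 9.48 and 9.56 in WFPA cells, and 9.91, 10.08 and 9.81 in EV cells. The 3 lines did not overlap in either gene. Read by the mean of all probe sets, ZNF704, ZNF782, ZNF365 and ZNF654 no longer met the limits.

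The 4 genes in which EV stood apart include ZNF385D, whose fingers belong to a type related to those of RNA-binding proteins, and ZNF362, a relative of lin-29 of the worm. ZNF385D had 7.36, 7.61 and 7.39 in WWOX cells, 7.74, 7.39 and 7.77 in WFPA cells, and 5.82, 5.88 and 4.997 in EV cells. ZNF362 had 9.73, 9.68 and 9.53 in WWOX cells, 9.25, 9.07 and 8.94 in WFPA cells, and 7.90, 8.32 and 7.98 in EV cells. Both genes were higher in WWOX and WFPA than in EV cells on every array, and only for ZNF385D did WWOX and WFPA overlap. ZNF880 had 8.73, 8.78 and 8.69 in WWOX cells, 9.40, 9.03 and 9.37 in WFPA cells, and 8.06, 7.76 and 8.62 in EV cells. ZNF114 ran the other way, with 9.96, 10.27 and 10.52 in WWOX cells, 10.11, 9.84 and 9.60 in WFPA cells, and 10.64, 10.94 and 11.12 in EV cells.

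Taking the lines in pairs, the 3 WWOX arrays lay below the 3 WFPA arrays in 29 of the 37 genes and above in 5, with overlap in ZNF547, ZNF114 and ZNF385D. Over all genes 18.5% had WWOX arrays below and 22.2% above those of WFPA. Against EV, WWOX arrays lay below in 23 genes and above in 7 (all genes, 16.5% and 16.0%). WFPA arrays lay above EV in 24 genes and below in 3 (all genes, 16.3% and 19.1%). These counts follow in part from the selection and are read no further. The means stood in the order WWOX, EV, WFPA from low to high in 25 of the 37 genes (67.6%). Among all 367 family genes with a group mean of 6 or more the same order held for 150 (40.9%), the most frequent of the 6 orders.

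Nearest to the limit on the inside were ZNF222, ZNF283 and ZNF616, with differences of 1.01, 1.02 and 1.03. Just outside were ZNF225, ZNF610 and ZFP69, each at 0.99. These last 3 genes were also lowest in WWOX and highest in WFPA cells. A further 12 family genes differed by 1 or more but stayed under the level of 6, and 9 of them lie on chromosome 19. ZNF571 had means of 2.46 in WWOX, 5.13 in WFPA and 2.61 in EV cells, and ZNF257 had 2.80 in WWOX, 4.68 in WFPA and 2.40 in EV cells. The others were ZNF99, ZNF542P, ZNF418, ZNF382, ZNF137P, ZNF514, ZNF385B, ZNF28, ZNF100 and ZNF891, and WFPA was the highest line in all 12.

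The whole family, which was set by symbol and not by level, can be tested. In limma, with a gene called at an adjusted p under 0.05 over all probe sets and at least 2-fold, 35 of the 487 family genes were lower in WWOX than in WFPA cells (7.19%, against 2.72% of all genes) and 4 were higher (against 2.01%). The median difference of the family was -0.17, and that of all genes 0.07. Quantile normalization gave 32 lower (6.57%, against 2.54% of all genes) and 4 higher (0.821%, against 2.15%). Median centring gave 36 and 4, set only beside the counts above, as its share of all genes is not given here. Against EV, WFPA cells had 22 family genes higher (4.52%, against 1.54% of all genes) and 1, ZNF114, lower (0.693% of all genes). That count of 1 was 0 without WFPA replicate 3 or EV replicate 3 and 2 without EV replicate 1. Without dim probe sets, 14 of 367 family genes were called higher in WFPA than in EV cells (3.81%, against 2.25% of the 13049 genes left).

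WWOX cells differed from EV cells in few called family genes. Higher in WWOX were ZNF704, ZNF385D, ZNF362 and ZNF782 (4 of 487, against 2.11% of all genes). Lower were ZNF662, ZNF570, ZNF569, ZNF883, ZNF432, ZNF566 and ZNF182 (7 of 487, or 1.44%, against 1.79% of all genes). Whether this share lies above or below that of all genes depended on the setting. The count of 7 became 14 (2.87%, against 2.08% of all genes) without WWOX replicate 1, 11 (2.26%, against 1.80%) without EV replicate 1 and 20 (4.11%, against 2.93%) when each gene was read by its most variable probe set. With no limit on the fold, 70 family genes were called lower in WWOX than in EV (14.4%, against 7.86% of all genes) and 14 higher (against 6.96%). Against the mean of EV and WFPA, 21 family genes were lower in WWOX (4.31%, against 2.06% of all genes) and 3 higher (against 1.94%). The count of 21 became 12 (2.46%, against 1.63% of all genes) with EV and WFPA fitted as 1 group and 38 (7.8%, against 3.2%) with the probe set of largest variance, and the count of 3 became 6. These comparisons share arrays, so they do not stand as separate evidence. Without WWOX replicate 3, the array that stood apart, 32 family genes were lower and 3 higher in WWOX than in WFPA, and 7 lower and 3 higher than in EV. The share of all genes called in that fit is not given here. These counts therefore compare only with those from all arrays, not with a background. Of the 37 genes, 31 still met the limits.

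By location, 24 of the 37 genes (64.9%) lie on chromosome 19, as do 226 of the 487 family genes (46.4%). Thus 10.6% of the family genes on chromosome 19 were among the 37, against 4.98% of the 261 elsewhere. Among those with a group mean of 6 or more the shares were 14.5% of 165 and 6.44% of 202. Chromosomes 7 and 16, with 30 family genes each, held 0 and 1 of the 37.

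In the tested comparison of WWOX with WFPA, 27 of the 226 family genes on chromosome 19 were lower (11.9%) and 0 higher, by limma. At an unadjusted p under 0.05 and without a fold limit, 101 were lower and 11 higher in WWOX, and of all genes 17.0% were lower and 18.9% higher. The family genes elsewhere had 8 of 261 lower (3.07%) and 4 higher. The 1094 other genes of chromosome 19 had 26 lower (2.38%) and 14 higher. The median difference was -0.31 for family genes on chromosome 19, -0.06 for those elsewhere and 0.10 for the other genes of chromosome 19. The shift was not limited to the 37: of the 141 family genes on chromosome 19 with a group mean of 6 or more that are not among them, 106 (75.2%) lay lower in WWOX than in WFPA, with a median of -0.32. On other chromosomes 116 of 189 such family genes did (61.4%, median -0.11), and of all genes with a group mean of 6 or more 47.5% did (median 0.02). The difference between these sets was not tested, since neighbouring and duplicated genes are not independent.

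**Figure D2:**
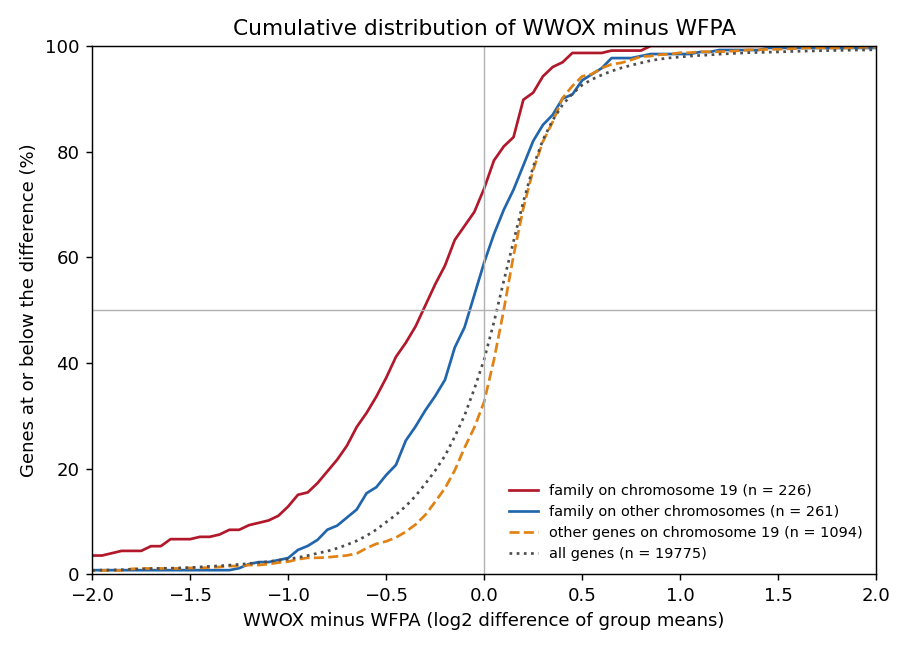
Percent of genes (y axis) whose WWOX minus WFPA difference in log2 level is at or below the value on the x axis. The curve of the 226 family genes on chromosome 19 lies left of the others, with a median of -0.31, against -0.06 for the 261 family genes on other chromosomes, 0.10 for the 1094 other genes on chromosome 19 and 0.07 for all 19775 genes.

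Family genes of chromosome 19 less than 500 kb apart were joined into clusters by their RefSeq order, and 4 clusters held 3 or more of the 37, 20 genes in all. The cluster from ZNF565 to ZNF573 held 10 of its 28 measured family genes. Of its 9 other family genes with a group mean of 6 or more, 8 lay lower in WWOX than in WFPA cells (median difference -0.29), ZNF345 being the exception. The 10 were, in order, ZFP82, ZNF566, ZNF850, ZNF829, ZNF568, ZNF420, ZNF569, ZNF570, ZFP30 and ZNF573. All 10 had WFPA means above those of EV, by 0.17 to 4.68, and 8 were lower in WWOX than in EV cells, ZFP82 and ZNF829 differing by 0.19 and 0.06 the other way.

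Genes with large and with small differences lay side by side in this cluster. ZNF146, with the dim ZFP14 between it and ZFP82, had means of 10.51 in WWOX, 10.68 in WFPA and 10.74 in EV cells. ZNF585A, between ZNF420 and ZNF569, had 10.86 in WWOX, 11.15 in WFPA and 10.93 in EV cells. ZNF345, next to ZNF829, had 6.72 in WWOX, 6.57 in WFPA and 6.74 in EV cells. Among other transcripts in the same stretch, LINC00665 had 6.45 in WWOX, 7.83 in WFPA and 6.96 in EV cells and ZNF529-AS1 had 6.75 in WWOX, 7.39 in WFPA and 7.11 in EV cells, while LOC728485, whose promoter overlaps that of ZNF850 on the other strand, had 6.36 in WWOX, 6.32 in WFPA and 6.36 in EV cells.

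The cluster from ZNF575 to ZNF180 held ZNF283, ZNF404, ZNF222 and ZNF226. Of its 16 other family genes with a group mean of 6 or more, 14 lay lower in WWOX than in WFPA (median -0.47), and 12 lay higher in WFPA than in EV (median 0.27). Most steps were small and alike: ZNF45 had 9.24 in WWOX, 10.05 in WFPA and 9.52 in EV cells, and ZNF227 had 7.62 in WWOX, 8.26 in WFPA and 7.84 in EV cells. ZNF575, ZNF576 and ZNF428, at the start of the cluster, differed by 0.42, 0.11 and 0.12 between their highest and lowest means. Of genes outside the family there, LOC100505715 had 5.43 in WWOX, 7.53 in WFPA and 6.11 in EV cells. PLAUR, the urokinase receptor, had 8.44 in WWOX, 9.45 in WFPA and 8.70 in EV cells, whereas SMG9 had 8.24 in WWOX, 8.25 in WFPA and 8.22 in EV cells.

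**Figure D3:**
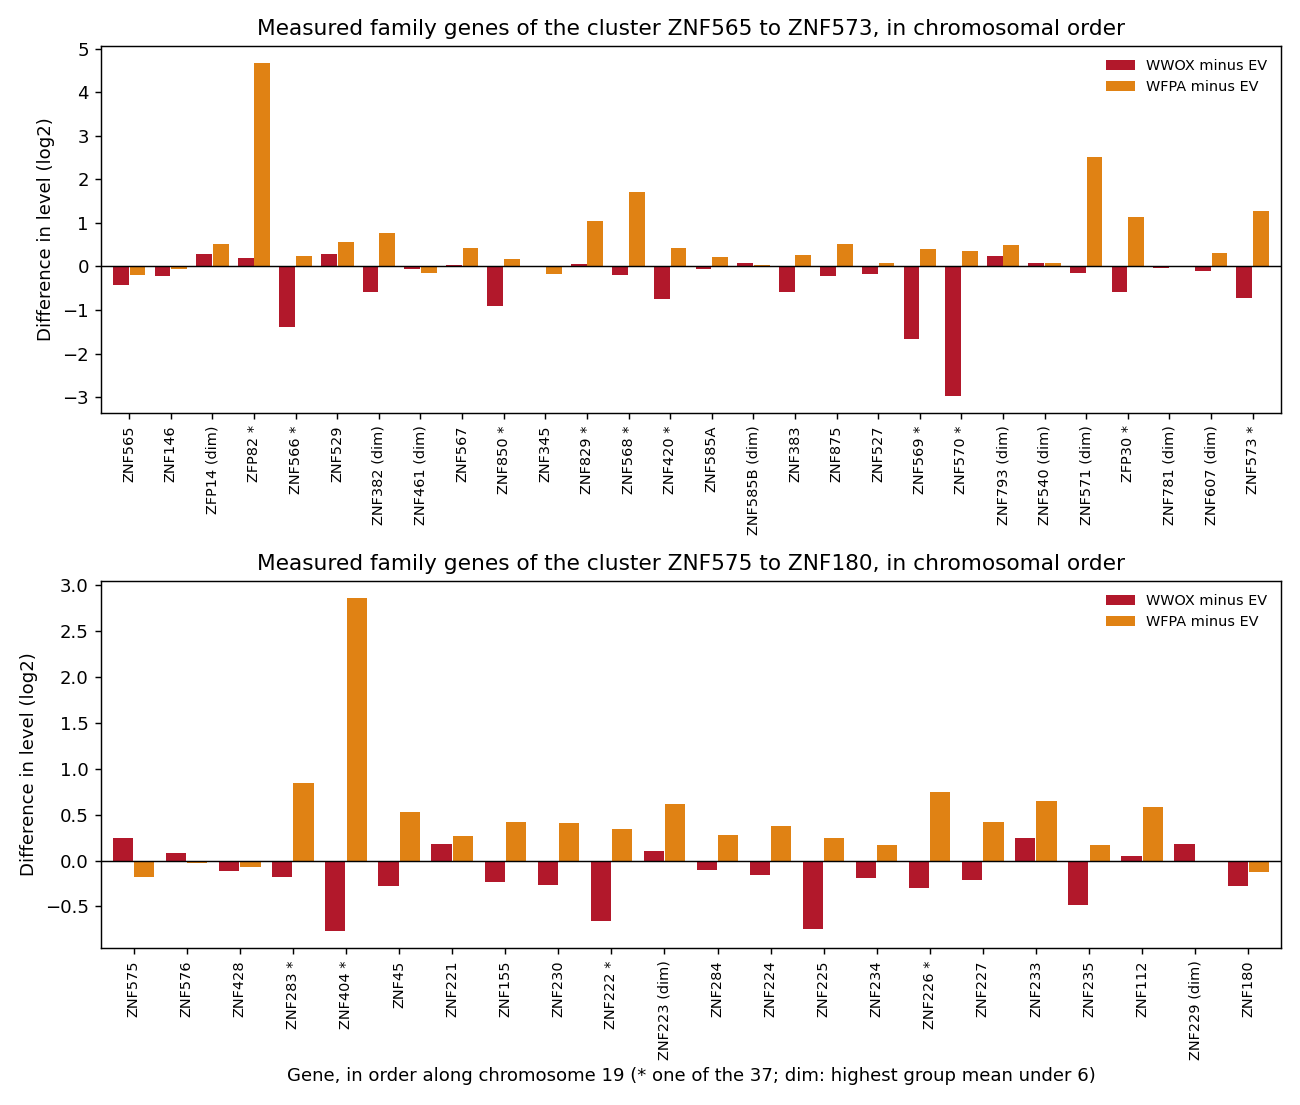
WWOX minus EV and WFPA minus EV differences of group means (log2, y axis) for the measured family genes of 2 chromosome 19 clusters, in order along the chromosome. A star marks the genes among the 37, and "dim" those with no group mean of 6 or more; in the upper cluster ZFP82 stands 4.68 above EV in WFPA cells and ZNF570 lies 2.97 below EV in WWOX cells.

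The cluster from ZNF101 to ZNF254 held ZNF431, ZNF738 and ZNF493, and its other family genes lay mostly lower in WWOX than in EV cells, with WFPA close to EV. Of these 14 genes with a group mean of 6 or more, 13 lay lower in WWOX than in EV (median -0.51), and the median of WFPA minus EV was 0.07. ZNF253 is an example, with means of 6.14 in WWOX, 7.11 in WFPA and 7.12 in EV cells, as is ZNF85, with 8.03 in WWOX, 8.82 in WFPA and 8.76 in EV cells. ZNF486, at 6.34 in WWOX, 6.32 in WFPA and 6.31 in EV cells, was the one that did not lie lower. The cluster from ZNF175 to ZNF331 held ZNF432, ZNF616 and ZNF880 and was mixed: of its 20 other genes with such a mean, 11 lay lower in WWOX than in EV (median -0.09). In it ZNF836, next to ZNF616, had 12.00 in WWOX, 11.18 in WFPA and 11.04 in EV cells, opposite to ZNF616 at 7.84 in WWOX, 8.87 in WFPA and 8.80 in EV cells. ZNF547, ZNF442, ZNF419 and ZNF114 lie on chromosome 19 outside these 4 clusters.

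Zinc finger genes share long stretches of nearly the same sequence, so each gene's other probe sets were read as well. They were not used by the selection, but they come from the same RNA. For 14 of the 37 genes there was 1 probe set, and the other 23 had 41 further ones. Direction was read from the sign of the line that stood apart minus the mean of the other 2. Of the 23 further probe sets with a group mean of 6 or more, 22 shifted in the same direction as the brightest. Of these, 15 differed by 1 or more. The sign alone does not show the same order of lines. A probe set of ZNF782 counted at 0.12 with EV above WWOX. One of ZNF362 counted at -0.11 with EV at 6.955 and WFPA at 6.980. The probe set of opposite sign was 1 of ZNF654, with 7.52 in WWOX, 7.45 in WFPA and 7.75 in EV cells. Of the 18 dimmer ones, 14 went the same way. ZNF431 had 2 further probe sets, with 5.48 and 5.28 in WWOX, 7.24 and 6.61 in WFPA and 6.32 and 5.24 in EV cells. Of the 37 brightest probe sets, 3 are of the _x_at and 8 of the _s_at type, which can match more than 1 transcript.

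**Figure D4:**
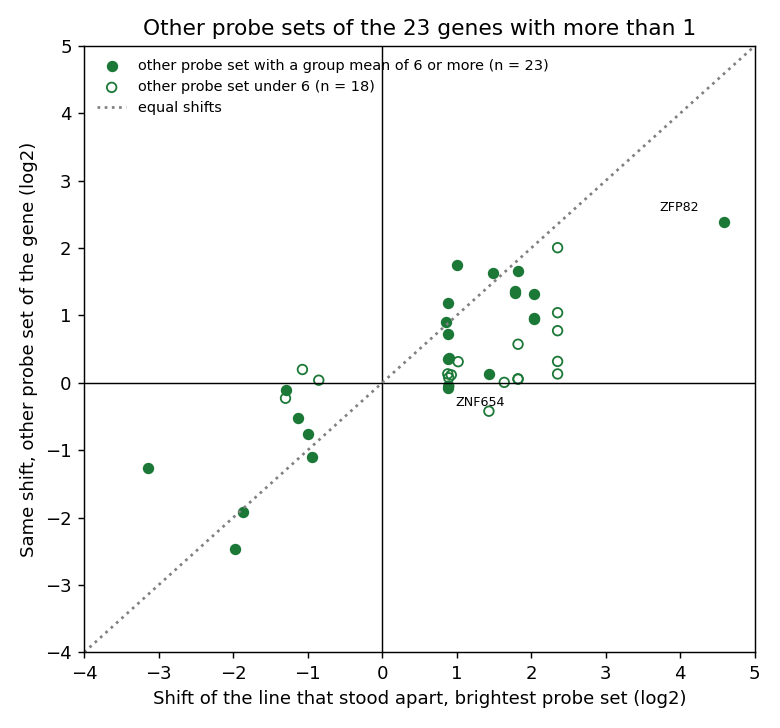
Shift of the line that stood apart from the mean of the other 2 lines (log2) at the brightest probe set (x axis) and at each of 41 other probe sets of the same gene (y axis), for 23 genes. Filled points are the 23 probe sets with a group mean of 6 or more, of which 1, from ZNF654, lies on the other side of 0; the dotted line marks equal shifts.

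Other genes linked to these proteins were read from lists. Of 44 measured genes for the KRAB corepressor and heterochromatin, limma called 0 in WWOX against WFPA and 0 in WWOX against EV, with 9 higher and 7 lower, and 5 higher and 10 lower, at an unadjusted p under 0.05. Of all genes, 18.9% were higher and 17.0% lower than in WFPA, and 14.0% higher and 15.2% lower than in EV, at this threshold. TRIM28, the corepressor itself, had 11.43 ± 0.275 in WWOX, 11.03 ± 0.033 in WFPA and 11.38 ± 0.116 in EV cells (SD, n = 3 each), and SETDB1 had 8.66 ± 0.317 in WWOX, 8.96 ± 0.109 in WFPA and 8.82 ± 0.272 in EV cells (SD, n = 3 each). CBX5, which encodes HP1 alpha, was the 1 gene called in WFPA against EV, with 10.09 in WFPA and 11.13 in EV cells (difference -1.03, standard error 0.081, limma adjusted p = 0.00015). Its level in WWOX cells was 10.44. This 1 call is 2.27% of the list, against 0.693% of all genes called lower in WFPA than in EV.

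Genes named after other families with C2H2 fingers were read as well. The ZBTB, ZSCAN and ZKSCAN lists were taken by the start of the symbol. They therefore also hold ZBTB8OS, ZSCAN12P1 and antisense or divergent transcripts such as ZBTB11-AS1, ZBTB44-DT and ZSCAN16-AS1, which are not genes of those families. Of 48 entries of the ZBTB list and 27 of the ZSCAN and ZKSCAN list limma called 0 in each comparison. At an unadjusted p under 0.05 in limma, 6 ZBTB entries were higher and 6 lower in WWOX against WFPA. Of the ZSCAN and ZKSCAN entries 4 were higher and 9 lower (all genes, 18.9% higher and 17.0% lower). At the adjusted threshold 2.01% of all genes were higher and 2.72% lower. Their median differences in WWOX against WFPA were 0.02 and -0.03. Of 25 KLF and SP genes, 2 (8%, against 2.72% of all genes) were lower in WWOX than in WFPA, SP6 by 1.32 and KLF5 by 1.16 (standard errors 0.158 and 0.109, limma adjusted p = 0.00062 and 0.00016). KLF15 was higher than in EV cells in WWOX and in WFPA cells, by 1.45 and 1.52 (standard error 0.361 each, limma adjusted p = 0.032 and 0.039). In each comparison this is 4% of the list, against 2.11% of all genes higher in WWOX and 1.54% higher in WFPA than in EV.

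Some markers of cell identity differed between the groups. Of all genes, 2.11% were called higher and 1.79% lower in WWOX than in EV. The shares were 2.01% and 2.72% in WWOX against WFPA, and 1.54% and 0.693% in WFPA against EV. Of 11 melanocytic genes, S100B, SOX10, S100A1 and MITF were called higher in WWOX than in EV and than in WFPA cells, and the log2 of the summed intensity of all 11 was 14.44 to 14.59 in WWOX, 12.71 to 12.82 in WFPA and 12.94 to 12.99 in EV cells. Of 8 epithelial genes, ESRP1 was higher and KRT18 and KRT8 lower in WWOX than in EV, and the sum was 12.11 to 12.23 in WWOX, 13.26 to 13.49 in WFPA and 13.47 to 13.59 in EV cells. CDH1 was higher in WFPA than in EV and in WWOX cells. Of 7 fibroblast genes LUM, COL1A2 and FAP were higher in WWOX than in EV, with sums of 9.40 to 9.46 in WWOX, 8.91 to 8.99 in WFPA and 8.52 to 8.71 in EV cells. Of 5 haematopoietic genes PTPRC was lower in WWOX and in WFPA than in EV cells, with sums of 7.83 to 8.13 in WWOX, 8.62 to 8.75 in WFPA and 10.03 to 10.25 in EV cells. The other 4 haematopoietic genes were not called, nor were MLANA, PMEL, TYR, COL1A1, COL3A1 and DCN of the other lists. The part of these markers in the zinc finger differences was not tested.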

How the data were processed

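RNA of WWOX, WFPA and EV cells was read on 9 Affymetrix U133 Plus 2.0 arrays. Scans had been calibrated and normalized by the authors with Partek Genomics Suite 6.5; what was deposited is the log2 intensity of each probe set. The background and normalization method is not given in the sources used here. No value was changed further, and the number of arrays limits the precision.

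Of 54675 probe sets, 62 controls were left out. The brightest of the probe sets with 1 gene stood for each of 19775 genes. Group means were fitted in limma 3.58.1 (R 4.3.3) over 54613 probe sets, with Benjamini-Hochberg adjustment and the fit tested on simulated data. Genes were matched to RefSeq. Figures were drawn with Python 3.11.15 and matplotlib 3.10.9. The members and lists were chosen with earlier results of these data known. All arrays are given for up to 6 genes of each set with the largest difference, and the means for cluster genes and the genes nearest the limit. Genes described as examples were chosen after their values were seen. Alternatives covered the fold limit (4-fold in the methods), the adjustment, the variance model, normalization, the probe set, dim probe sets, the replicate block and each array left out.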

Additional observations from a re-analysis of the deposited data

How the results depend on the processing

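Counts of called family genes follow the limits. At 4-fold, the limit in the methods, WWOX had 10 genes lower and 1 higher than WFPA, and 2 lower and 1 higher than EV. It had 5 lower and 1 higher than the mean of EV and WFPA. WFPA had 6 higher and 0 lower than EV. Of the family these are 2.05% and 0.205%, 0.411% and 0.205%, 1.03% and 0.205%, and 1.23% and 0%. Of all genes, 0.738% and 0.703%, 0.455% and 0.794%, 0.445% and 0.718%, and 0.379% and 0.111% were called. With no fold limit the counts, in the same sequence, were 112 and 21, 70 and 14, 106 and 20, and 36 and 6. Of the family these are 23% and 4.31%, 14.4% and 2.87%, 21.8% and 4.11%, and 7.39% and 1.23%. Of all genes, 11% and 9.38%, 7.86% and 6.96%, 10.9% and 9.49%, and 4.95% and 3.67% were called. With Bonferroni adjustment the counts were 10 and 0, 3 and 1, 7 and 0, and 4 and 0. Of the family these are 2.05% and 0%, 0.616% and 0.205%, 1.44% and 0%, and 0.821% and 0%. Of all genes, 0.834% and 0.784%, 0.546% and 0.87%, 0.789% and 0.971%, and 0.374% and 0.182% were called. With the probe set of largest variance, 20 genes were lower in WWOX than in EV, and 38 lower and 6 higher than the mean. With the mean of all probe sets, 2 were higher in WWOX than in EV and 1 than in WFPA. Without dim probe sets 14 of 367 were higher in WFPA than in EV (3.81%, against 2.25% of the 13049 genes left). With EV and WFPA as 1 group 12 were lower in WWOX.

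Leaving out 1 array gave 7 to 14 genes lower in WWOX than in EV and 0 to 2 lower in WFPA than in EV. The genes that met the rule then numbered 34 to 49. They were 60 with the probe set of largest variance, 67 at a difference of 0.8 and 16 at 1.5. The mean of all probe sets left 24 of the 37 and quantile normalization 33. Of 516 values of single genes under 14 alternatives, 27 moved by more than the spread between arrays, 16 of them with the mean of all probe sets, and 0 changed sign.

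Arrays share replicate numbers, but same-numbered arrays did not deviate together (r from -0.052 to 0.035, against -0.089 to 0.085 for other pairs). With the replicate block 36 genes were lower in WWOX than in WFPA and 21 higher in WFPA than in EV, close to the counts without it. Levels under the lower quartile, as for ZFP82, ZNF570 and ZNF883, limit how well a fold is known.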
